A study of Mus musculus with 7 samples.

Results

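The bone morphogenetic protein (BMP) pathway and the Id genes were followed through 10 genes of the deposited table: the ligand gene Bmp4, the receptor genes Bmpr1a and Bmpr2, the signal transducers Smad1 and Smad5, the inhibitory Smad6 and Smad7, and the targets Id1, Id2 and Id3. They are defined by symbol, and all 10 were found among 52636 genes; the set was put together with earlier results of these data known. RNA came from the inner cell mass (ICM) of mouse embryos of genotype Sox2Cre;CRAFR26, which carry a tamoxifen-inducible RAF construct that switches on ERK. Embryos of both groups were taken from the oviduct at embryonic day 2.5 and spent 24 h in medium with the FGF receptor inhibitor PD173074 (250 nM). The vehicle group (3 libraries) received ethanol and the tamoxifen group (4 libraries) received 250 nM 4-hydroxytamoxifen, both for 4 h. The libraries come from 2 clones of the construct, 4 and 8. Values of a group are always given in the order clone4_1, clone4_2, clone8_1 and, in the tamoxifen group only, clone8_2; the submitters discarded 1 vehicle library at quality control. Each library pooled 10 ICMs after the outer layer had been removed by immunosurgery, so a library is an average over embryos and cell types, and a smaller number of cells of a type cannot be told apart from less RNA per cell. Cre expressed from Sox2 is known for acting in the epiblast lineage, so cells of other lineages in a pool need not carry the active construct.

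BMP ligands bind pairs of type I and type II receptor kinases. The type I receptor phosphorylates Smad1, Smad5 and Smad9, which join Smad4 and switch on genes in the nucleus. The Id genes are the best known direct targets, and Smad6 and Smad7 are targets that act back on the receptors. Id proteins have a helix-loop-helix domain without a DNA-binding basic region; they pair with E proteins such as those of Tcf3 and Tcf12 and keep them off DNA. In mouse embryonic stem cells, BMP4 acting through Id genes is known to support self-renewal, and ERK is known to phosphorylate the linker of Smad1.

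Total counts ranged from 22981498 to 42294719 per library. Levels are CPM, that is, counts divided by the TMM-adjusted size of each library. Markers of epiblast, primitive endoderm and trophectoderm were all present: the 8 epiblast markers and the 10 trophectoderm markers had counts in every library, and of the 8 primitive endoderm markers only Sox7 was at 0, in 1 library. Scaled per kb of transcript, the summed trophectoderm markers (3412 to 5949) were above the summed epiblast markers (843 to 1220) in every library, although the labels call the samples epiblast. That order rests on the keratin genes Krt8 and Krt18. The other 8 trophectoderm markers summed to 692 to 1120 CPM per kb and were above the epiblast sum in 4 of 7 libraries. These were every vehicle library and, of the tamoxifen libraries, only clone8_2. The vehicle library clone8_1 stood apart in short transcripts: 654 protein-coding genes under 800 nt lay at a median of -1.67 (log2) from the median library, against -0.08 to 0.26 in the other 6 libraries. The 2389 genes from 800 to under 1600 nt, the range of all 3 Id genes, lay at -0.11 in that library. The summed CPM of 6 ERK feedback genes ranged from 232 to 258 in the vehicle group. In the tamoxifen group it ranged from 337 to 367, with no overlap. Of the 6, 5 were higher and 1 (Dusp6) was lower. Spry2 alone had an unadjusted p under 0.05 (edgeR), a threshold passed upwards by 2.69% of all genes. It was also the only 1 of the 6 without overlap, at 45.4 to 82.5 CPM in vehicle and 109 to 129 CPM in tamoxifen libraries. Of all genes, 3.71% were higher without overlap.

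No member passed the test for a response to tamoxifen. With the quasi-likelihood test of edgeR and Benjamini-Hochberg adjustment over 16248 genes, 0 of the 9 members tested had an adjusted p under 0.05, as did 0% of all genes. Smad6 did not pass the filter on low counts. At an unadjusted p under 0.05 there was 1 member, Id3, which was higher, against 2.69% of all genes higher and 5.97% in either direction. With DESeq2 the counts were the same, 0 at the adjusted and 1 at the unadjusted threshold. The members' median log2 fold change was 0.00 and that of all genes was 0.02; 4 of the 9 members were below 0, as were 48.3% of all genes. Nothing says that the pools were separate litters or days, so the p-values measure the spread between these libraries.

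**Figure D1:**
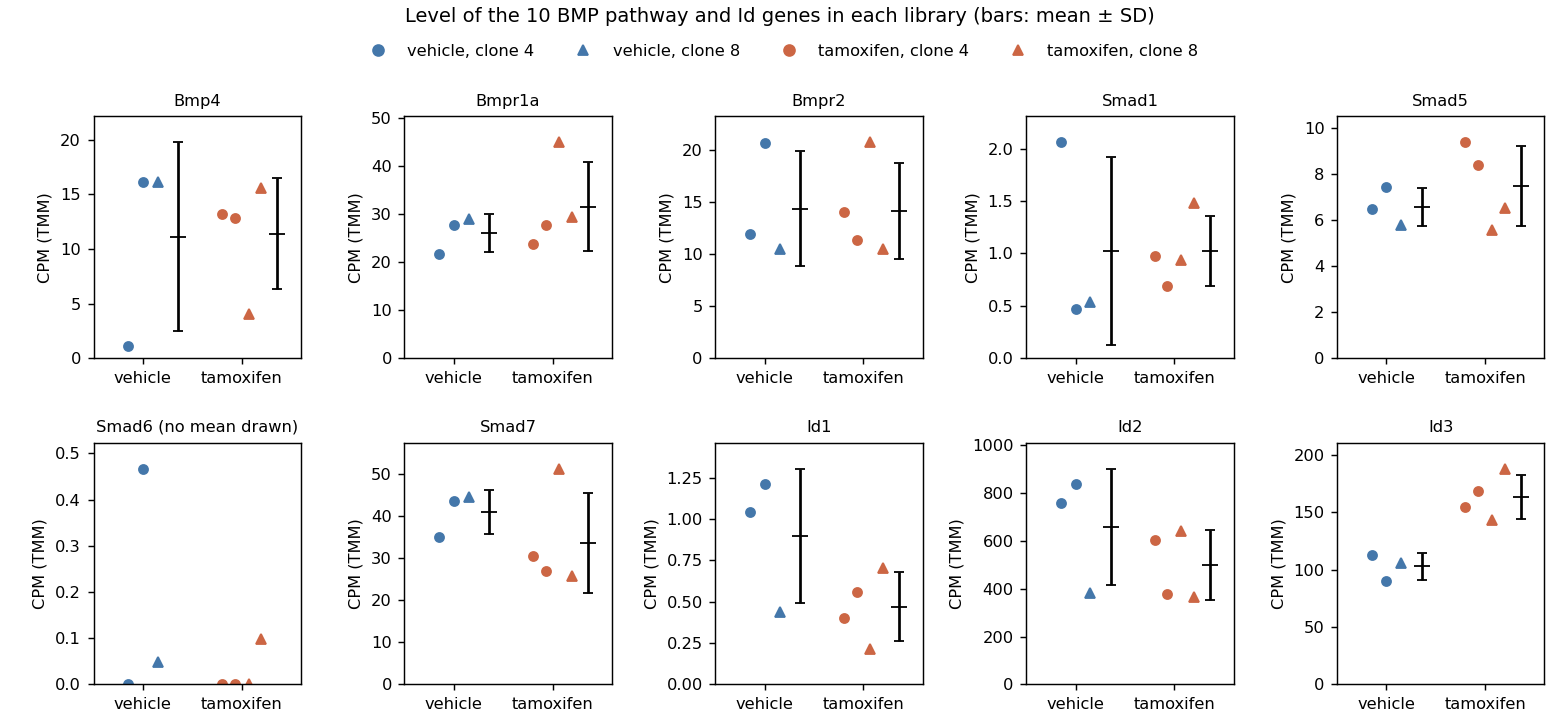
Level of each member in each library, in CPM on linear axes that start at 0, with vehicle in blue, tamoxifen in orange, clone 4 as circles and clone 8 as triangles; bars give mean ± SD (n = 3 and n = 4), with no mean drawn for Smad6. Id3 is the member whose 4 tamoxifen libraries all lie above the 3 vehicle libraries, and Bmp4 has 1 vehicle library near 1 CPM.

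The levels of the members spanned several orders of magnitude. Scaled per kb of typical transcript, Id2 was the most abundant at 446 ± 153 CPM per kb (SD, n = 7 libraries), followed by Id3 at 108 ± 28.1 (SD, n = 7) and Smad7 at 19.5 ± 5.21 (SD, n = 7). The ranges of these 3 over the libraries did not overlap each other or that of the next gene. Bmpr1a (7.39 ± 1.90, SD, n = 7) and Bmp4 (6.11 ± 3.33, SD, n = 7) came next, with overlapping ranges. Smad5 (1.55 CPM per kb), Bmpr2 (1.10), Id1 (0.62), Smad1 (0.297) and Smad6 (0.054) followed, and in this lower part of the order each gene's range overlapped that of the next. The 3 Id paralogs therefore sat at ranks 1, 2 and 8 of 10.

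**Figure D2:**
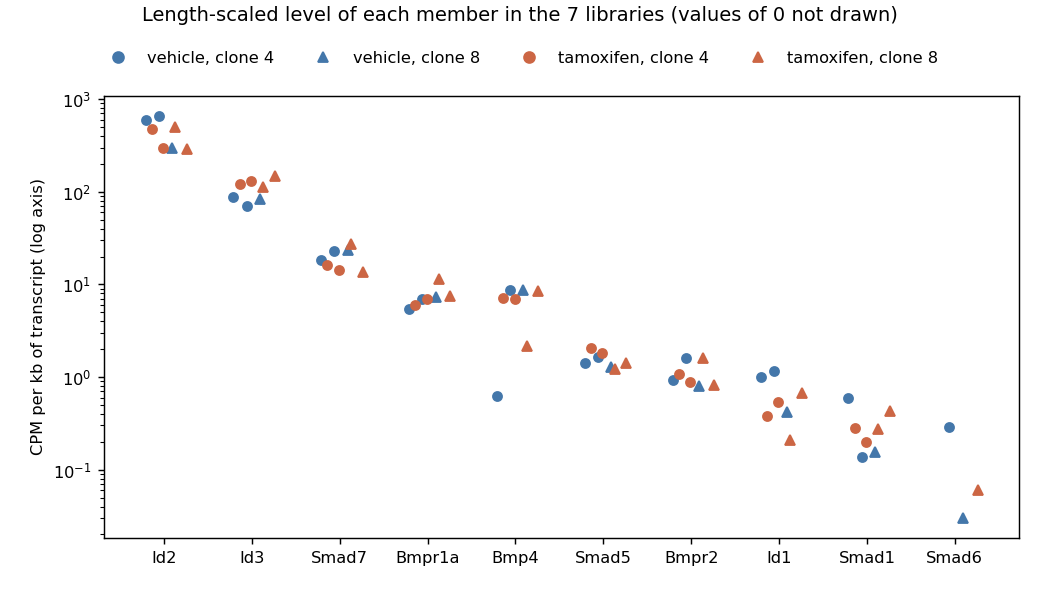
CPM per kb of typical transcript on a log axis, 1 point per library, members ordered by their mean; values of 0 are not drawn. Id2 and Id3 stand above all other members in every library, and Id1 lies among the low genes.

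Id3 was the member whose groups did not overlap, although it did not pass the adjusted threshold. It lies on chromosome 4 (136143497 to 136145755, plus strand, GRCm38; ENSMUSG00000007872). It was at 113, 89.8 and 106 CPM in the vehicle libraries and at 155, 168, 144 and 188 CPM in the tamoxifen libraries. Every tamoxifen value was above every vehicle value, with 30.5 CPM between the nearest 2. Of the members, 1 of 9 had groups apart in this direction, against 3.71% of all genes tested, or 8.45% in either direction.

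The means of Id3 were 103 ± 11.9 CPM (SD, n = 3) and 164 ± 19.2 CPM (SD, n = 4). The log2 fold change was 0.67 ± 0.17 (SE), a ratio of 1.59 (edgeR, unadjusted p = 0.00230, adjusted p = 0.794). The clones gave similar ratios, 1.59 in clone 4 and 1.57 in clone 8, and the test of the clone difference gave an interaction of -0.02 ± 0.32 (SE; adjusted p = 0.989, edgeR). Clone 8 has 1 vehicle library, so this test takes the spread of that arm from the other libraries, and it does not show that the clones respond alike. Id3 is short, at 1278 nt, but the smooth curve of the short-transcript loss put a gene of this length at only -0.09 in vehicle clone8_1, and without that library the log2 fold change was 0.68 ± 0.17 (SE). Over all 16 alternatives the value lay between 0.58 and 0.74; the unadjusted p was under 0.05 in all 16, and the adjusted p under 0.05 in none, from 0.160 with DESeq2 to 0.961 without tamoxifen clone8_1. The summed ERK feedback genes had no overlap between groups either, although Spry2 alone of the 6 had groups apart. The part of these genes in the Id3 values was not tested. The summed primitive endoderm markers overlapped, at 788 to 1066 CPM in the vehicle group and 809 to 946 CPM in the tamoxifen group. Most of that sum was Dab2, at 639 to 823 CPM in vehicle and 560 to 748 CPM in tamoxifen libraries. Of 7 such markers tested, 5 were higher and 2 (Dab2 and Pdgfra) lower with tamoxifen. At an unadjusted p under 0.05 (edgeR), 2 (Sox17 and Lama1) were higher, against 2.69% of all genes. The same 2 had groups apart upwards, against 3.71% of all genes tested.

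Id2, on chromosome 12 (25093799 to 25097140, minus strand, GRCm38; ENSMUSG00000020644), is expressed in trophectoderm as well as in other early cells. Its vehicle libraries were at 757, 838 and 381 CPM, and its tamoxifen libraries at 605, 379.6, 642 and 366 CPM. A high and a low level were seen in both groups, so that the groups overlapped: 4 libraries lay at 605 CPM or above and 3 at 366 to 381 CPM. The log2 fold change was -0.40 ± 0.30 (SE; adjusted p = 0.803, edgeR).

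The value for Id2 depended on the library vehicle clone8_1. Without it the log2 fold change was -0.69 ± 0.23 (SE; unadjusted p = 0.0145, adjusted p = 0.746, edgeR), and with both clone8_1 libraries left out it was -0.83 ± 0.21 (SE; unadjusted p = 0.00397, adjusted p = 0.578). Without vehicle clone4_2 it was -0.19 ± 0.33 (SE). In clone 4 the mean went from 797 CPM in vehicle to 492 CPM in tamoxifen libraries, a ratio of 0.618. In clone 8 it was 381 CPM in the 1 vehicle library and 504 CPM in the tamoxifen libraries, a ratio of 1.32. The interaction of clone and condition for Id2 was 1.10 ± 0.47 (SE), at an unadjusted p of 0.0463 (edgeR, adjusted p = 0.326). In this test 0 of the 9 members had an adjusted p under 0.05 against 3.16% of all genes, and 14.8% of all genes had an unadjusted p under 0.05. Without a filter on low counts the interaction of Id2 was 1.11 ± 0.30 (SE), and Id2 passed the adjusted threshold. The share of all genes passing in that setting was not counted, and clone 8 has 1 vehicle library, so nothing is read from it. Corrected for transcript length, the interaction was 0.96 ± 0.43 (SE; adjusted p = 0.393).

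The 10 trophectoderm markers (Cdx2, Gata3, Krt7, Krt8, Krt18, Tfap2a, Tfap2c, Eomes, Elf3, Hand1) had values beside those of Id2 that also leaned to vehicle. Their summed level was 10759, 7991 and 8942 CPM in the vehicle libraries, and 7617, 6457, 9166 and 6394 CPM in the tamoxifen libraries. All 10 were lower with tamoxifen, at a median log2 fold change of -0.30. At an unadjusted p under 0.05 there were 3 (Gata3, Elf3 and Krt7), against 3.28% of all genes lower, and 3 (Gata3, Elf3 and Tfap2c) had groups apart, against 4.74% of all genes. Without Krt8 and Krt18, which make up most of the sum, the other 8 summed to 2795, 2632 and 2778 CPM in the vehicle group and 2082, 1742, 2192 and 2175 CPM in the tamoxifen group, with no overlap; this sum was added after the data were seen. Of the libraries with little Id2, tamoxifen clone4_2 had the lowest sum of these 8 markers. Vehicle clone8_1 and tamoxifen clone8_2 were close to the highest library of their group in that sum. By the sum of all 10 markers, the tamoxifen libraries had the same order as by Id2, and the vehicle libraries did not. The part of the markers in the Id2 values was not tested. The 8 epiblast markers summed to 1426 to 1809 CPM in vehicle and 1486 to 2213 CPM in tamoxifen libraries, and the groups overlapped. With tamoxifen 6 of the 8 were higher and 2 (Nanog and Pou5f1) lower, at a median log2 fold change of 0.48. Of the 8, 0 had an unadjusted p under 0.05 (edgeR) and 0 had groups apart.

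**Figure D3:**
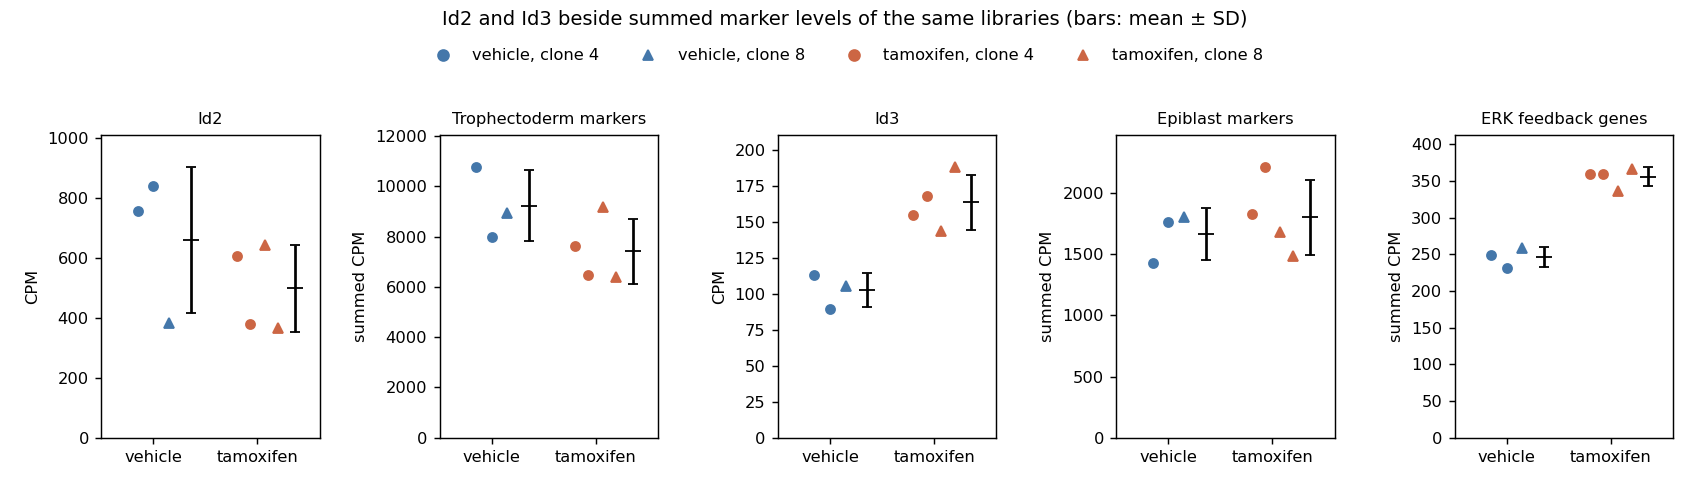
CPM of Id2 and Id3, and the summed CPM of trophectoderm markers, epiblast markers and ERK feedback genes, in each library on axes that start at 0; bars give mean ± SD (n = 3 vehicle and n = 4 tamoxifen). Id3 and the ERK feedback sum have no overlap between groups, although of the 6 ERK feedback genes only Spry2 has groups apart. Id2 and both lineage sums overlap, and the trophectoderm sum is mostly Krt8 and Krt18.

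Id1 (chromosome 2, 152736251 to 152737410, plus strand, GRCm38; ENSMUSG00000042745), the Id gene most often used as a readout of BMP signalling, was near the lower end of what was measured. It had 42, 39 and 18 counts in the vehicle group, or 1.04, 1.21 and 0.439 CPM. In the tamoxifen group it had 17, 13, 6 and 29 counts, or 0.403, 0.560, 0.217 and 0.704 CPM. Both clone 4 vehicle libraries lay above all others, and vehicle clone8_1 lay within the tamoxifen range. The log2 fold change was -0.92 ± 0.72 (SE; adjusted p = 0.812, edgeR), below 0 in all 16 alternatives and with an unadjusted p under 0.05 in none. At 1047 nt it is the shortest member, and the length curve was at -0.38 for it in vehicle clone8_1.

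Sequences before the RefSeq start of the 2 abundant Id genes are shown because BMP Smads are known to bind GC-rich elements such as GGCGCC and the shorter element CAGAC, and these 2 genes hold different ones. The sequences are from RefSeq (GRCm38.p6), 5′ to 3′ on the strand of the gene, with matches to GGCGCC (its own reverse complement) or to CAGAC and its reverse complement GTCTG in capitals. The Id2 stretch is chr12:25096254-25096342 and starts 250 bases before the RefSeq start; it lies in the first intron of a longer Id2 transcript of the annotation used here, and so within the gene. The Id3 stretches are chr4:136143643-136143672 and chr4:136143742-136143771, 30 bases each, since the annotation used here places them inside the first exon of a longer Id3 transcript.
Id2: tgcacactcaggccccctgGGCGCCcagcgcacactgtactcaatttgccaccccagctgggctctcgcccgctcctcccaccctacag
Id3 distal match: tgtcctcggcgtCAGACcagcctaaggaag
Id3 proximal match: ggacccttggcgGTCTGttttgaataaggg
In the 250 bases before the RefSeq start, Id2 had 1 GGCGCC and no CAGAC, and Id3 had 2 CAGAC matches, 167 and 68 bases before the start, and no GGCGCC. Of 32851 promoter windows of this length, 9.59% held GGCGCC and 42.2% held CAGAC on either strand. Windows were found for 8 of the 10 members; GGCGCC was present in at least 1 window of 4 of them (Id2, Bmpr1a, Bmpr2 and Smad5) and CAGAC in at least 1 window of 2 (Id3 and Smad5). These are matches of letters only.

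The ligand gene Bmp4 (chromosome 14, 46383520 to 46390669, minus strand, GRCm38; ENSMUSG00000021835) varied most between libraries of the same group among the members with more than 5 CPM. It was at 1.14 CPM (46 counts) in vehicle clone4_1, against 16.1 CPM in vehicle clone4_2 and again 16.1 CPM in vehicle clone8_1. In the tamoxifen group it was at 13.2, 12.8, 4.04 and 15.6 CPM, with 112 counts in tamoxifen clone8_1. One library of each group was thus well below the other 5, and the highest value was 14.1 times the lowest. The log2 fold change was 0.04 ± 0.72 (SE; adjusted p = 0.992, edgeR), and it was -0.51 ± 0.46 (SE) without vehicle clone4_1. The antisense gene Gm15222 overlaps Bmp4 by 1764 bp on the other strand, and whether counting used strand is not given in the sources used here.

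The type I receptor gene Bmpr1a (chromosome 14, 34410734 to 34503341, minus strand, GRCm38; ENSMUSG00000021796) was at 21.7, 27.7 and 29.1 CPM in the vehicle libraries. It was at 23.9, 27.8, 45.0 and 29.4 CPM in the tamoxifen libraries. Only tamoxifen clone8_1 lay above the range of the other 6 libraries, and without it the log2 fold change went from 0.27 ± 0.25 (SE) to 0.05. The type II receptor gene Bmpr2 (chromosome 1, 59763400 to 59879014, plus strand, GRCm38; ENSMUSG00000067336) was at 11.9, 20.6 and 10.4 CPM in vehicle libraries. Its tamoxifen values were 14.0, 11.3, 20.7 and 10.5 CPM. The groups covered nearly the same range, and the log2 fold change was -0.02 ± 0.33 (SE; adjusted p = 0.992, edgeR).

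The signal transducers were low. Smad5 (chromosome 13, 56703010 to 56742377, plus strand, GRCm38; ENSMUSG00000021540) was at 6.50, 7.44 and 5.80 CPM in the vehicle group. In the tamoxifen group it was at 9.38, 8.41, 5.56 and 6.53 CPM. Both clone 4 tamoxifen libraries were above all others and both clone 8 ones lay within or below the vehicle range, with a log2 fold change of 0.18 ± 0.30 (SE; adjusted p = 0.897, edgeR). Smad1 (chromosome 8, 79338395 to 79399518, minus strand, GRCm38; ENSMUSG00000031681) was at 2.06, 0.467 and 0.536 CPM in vehicle libraries, from 83, 15 and 22 counts. It was at 0.971, 0.690, 0.939 and 1.48 CPM in tamoxifen libraries. Its log2 fold change was 0.00 ± 0.69 (SE), and 1.00 without vehicle clone4_1, the library with the most Smad1 and the least Bmp4.

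The inhibitory Smads stood far apart in level. Smad7 (chromosome 18, 75367529 to 75395935, plus strand, GRCm38; ENSMUSG00000025880), which blocks the receptors and is itself a target of BMP and TGF-beta signals, was at 34.9, 43.6 and 44.4 CPM in the vehicle libraries. It was at 30.4, 26.99, 51.3 and 25.7 CPM in the tamoxifen libraries, of which clone8_1 lay above the vehicle range and the other 3 below it. The log2 fold change was -0.29 ± 0.26 (SE; adjusted p = 0.836, edgeR). Without tamoxifen clone8_1 it was -0.56 ± 0.18 (SE; unadjusted p = 0.0139, adjusted p = 0.961, edgeR). Smad6 (chromosome 9, 63953076 to 64022059, minus strand, GRCm38; ENSMUSG00000036867), the inhibitory Smad with more preference for the BMP branch, had 0, 15 and 2 counts in the vehicle and 0, 0, 0 and 4 counts in the tamoxifen libraries. A count of 0 allows up to 3 counts, which is 0.0710 to 0.129 CPM in these libraries, so a difference in Smad6 was not detectable at this depth; this limit covers counting error only.

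**Figure D4:**
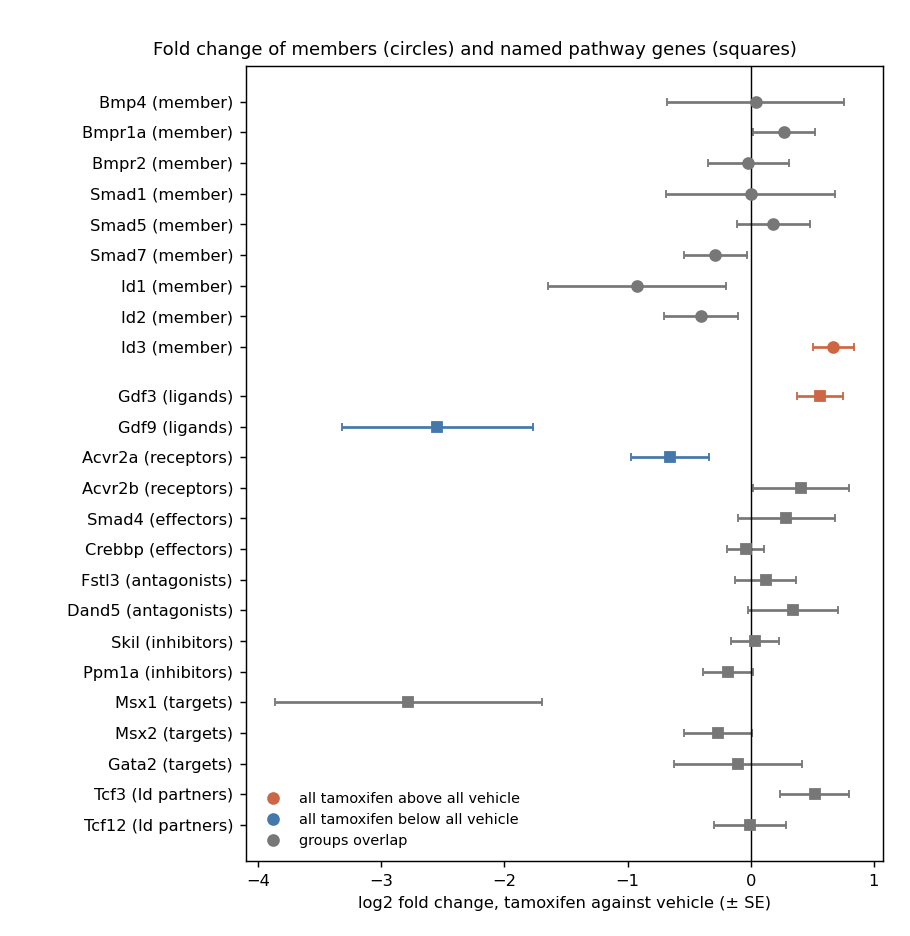
Log2 fold change of tamoxifen against vehicle with its SE for the 9 tested members (circles) and 15 named pathway genes (squares; Bmp6 is not drawn), coloured by whether the groups overlap. Id3 and Gdf3 lie above 0 with groups apart, Gdf9 and Acvr2a below 0 with groups apart, and no gene passed the adjusted threshold.

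The rest of the pathway was read from a list of 58 genes in 7 roles. Of these, 36 were tested, 18 were higher and 18 lower with tamoxifen, and 0 had an adjusted p under 0.05 in edgeR or in DESeq2. At an unadjusted p under 0.05 (edgeR) there were 4 of the 36 (Gdf3 and Bmp6 higher, Gdf9 and Msx1 lower). This threshold was passed by 2.69% of all genes upwards, 3.28% downwards and 5.97% in either direction. Bmp6 reached the level of the filter in tamoxifen libraries only, and Msx1 in 3 vehicle libraries and 1 tamoxifen library, so both were tested through the group where they were high and nothing is read from their p-values. The median log2 fold change was 0.01, against 0.02 for all genes. The groups were apart in 1 gene that was higher and 2 that were lower, against 3.71% and 4.74% of all genes.

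Among 12 other ligand genes 6 were tested. Gdf3, a TGF-beta family ligand of pluripotent cells that is known to inhibit BMPs, was by far the most abundant of them at 37.6 ± 9.68 CPM per kb (SD, n = 7), above Bmp4. It was at 57.8, 69.5 and 60.9 CPM in the vehicle group and at 100.01, 114, 82.4 and 75.0 CPM in the tamoxifen group. The groups had no overlap and were 5.55 CPM apart at the nearest. The log2 fold change of Gdf3 was 0.57 ± 0.19 (SE; unadjusted p = 0.0129, adjusted p = 0.794, edgeR), with ratios of 1.68 in clone 4 and 1.29 in clone 8.

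Gdf9, a growth factor made by oocytes, had 36, 92 and 148 counts in the vehicle libraries and 12, 19, 14 and 4 counts in the tamoxifen libraries, so that all of its values were low. These were 0.893, 2.87 and 3.61 CPM against 0.284, 0.819, 0.506 and 0.0971 CPM, with all tamoxifen libraries below all vehicle libraries and only 0.0742 CPM between the nearest 2. On the log2 scale the difference was -2.55 ± 0.77 (SE; unadjusted p = 0.00813, adjusted p = 0.794, edgeR). Bmp6 was at 0 in all 3 vehicle libraries and in tamoxifen clone8_1, and had 21, 10 and 13 counts in tamoxifen clone4_1, clone4_2 and clone8_2. The tamoxifen group held 44 counts, or 0.327 CPM over the group. No fold is given, since Bmp6 was tested through the group where it was high. The groups share the value 0, and Bmp6 overlaps an antisense gene. Bmp3, Bmp5 and Gdf6 had 0 counts in every library.

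Of 10 further receptors and co-receptors 6 were tested, 3 higher and 3 lower, and the highest per kb were Acvr2b (5.65 CPM per kb) and Acvr2a (3.44), type II receptors shared by activins and BMPs. Acvr2a was at 24.6, 23.1 and 26.5 CPM in vehicle and 15.5, 16.4, 7.69 and 23.04 CPM in tamoxifen libraries. The groups were apart by 0.0663 CPM, with tamoxifen clone8_2 next to the vehicle libraries, and the log2 fold change was -0.66 ± 0.32 (SE; adjusted p = 0.794, edgeR). Acvr2b was at 12.5, 9.22 and 8.21 CPM in vehicle and 7.77, 9.70, 23.9 and 11.5 CPM in tamoxifen libraries, and its log2 fold change of 0.41 was -0.04 without tamoxifen clone8_1, its highest library.

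Of 5 effectors and cofactors 4 were tested. The most abundant, Crebbp (a coactivator with acetyltransferase activity), was at 201 ± 15.1 CPM (SD, n = 3) and 196 ± 17.4 CPM (SD, n = 4), the difference being -0.04 ± 0.15 (SE) on the log2 scale. Smad4, the shared partner of the receptor Smads, was at 9.50, 13.8 and 27.1 CPM in the vehicle libraries, and at 16.6, 17.3, 32.8 and 15.4 CPM in the tamoxifen libraries. Its highest library in each group was the one numbered clone8_1, and its log2 fold change of 0.29 ± 0.39 (SE) was 0.81 without vehicle clone8_1 and -0.03 without tamoxifen clone8_1.

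Secreted antagonists were sparse: 5 of 13 were tested, with Fstl3 (9.14 CPM per kb) and Dand5 (2.88) the highest, and Grem1 had 0 counts in every library. Fstl3, which binds activins, had a log2 fold change of 0.12 ± 0.25 (SE) and Dand5, an antagonist of Nodal and BMP, one of 0.34 ± 0.37 (SE), neither with an unadjusted p under 0.05 in edgeR. All 7 intracellular and membrane inhibitors were tested, 5 higher and 2 lower. Ppm1a, a phosphatase that acts on receptor Smads, was the highest at 126 CPM per kb. The vehicle mean was 591 ± 64.4 CPM (SD, n = 3) and the tamoxifen mean 521 ± 119 CPM (SD, n = 4), or -0.18 ± 0.20 (SE) on the log2 scale. Skil, a co-repressor of Smads, had a log2 fold change of 0.03 ± 0.19 (SE).

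Of 8 other targets 5 were tested, 1 higher and 4 lower. Msx1, a homeobox target of BMP, had 15, 58 and 230 counts in vehicle and 45, 5, 1 and 6 counts in tamoxifen libraries, with overlapping groups. The fitted value for Msx1, -2.78 ± 1.09 on the log2 scale (SE), was -0.74 within clone 4. Gata2 and Msx2, the highest of this role per kb (8.34 and 6.87), had log2 fold changes of -0.11 ± 0.52 (SE) and -0.27 ± 0.27 (SE). Of the E protein genes whose products pair with Id proteins, Tcf3 had 13.9, 12.6 and 11.4 CPM in vehicle and 13.1, 13.4, 22.4 and 23.7 CPM in tamoxifen libraries. Its 2 high values were both clone 8 tamoxifen libraries, and the difference of 0.52 ± 0.28 (log2, SE; unadjusted p = 0.0923, edgeR) was -0.01 within clone 4. Tcf12 had a log2 fold change of -0.01 ± 0.29 (SE).

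**Figure D5:**
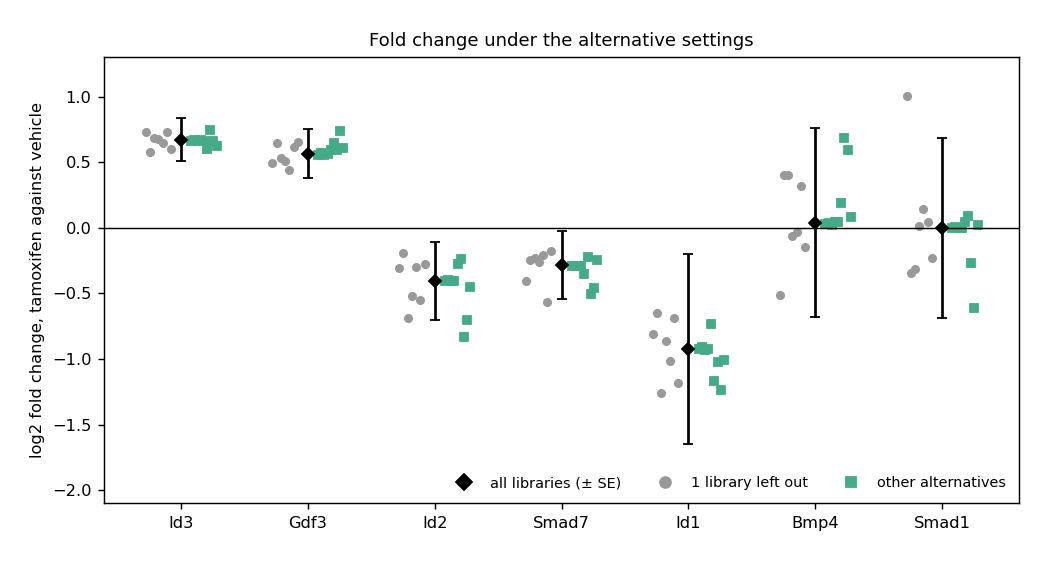
Log2 fold change of 6 members and Gdf3 with all libraries (diamonds, ± SE), with 1 library left out (grey circles) and under the other alternatives (green squares). Id3 and Gdf3 stay above 0 and Id2, Smad7 and Id1 below 0 in all 16 alternatives, and Bmp4 and Smad1 cross 0.

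Whether the Id genes and Bmp4 varied together was examined over the 7 libraries, in 6 pairs of log2 CPM that share condition, clone and library composition. No pair passed adjustment over the 6. Id2 and Id3 gave Pearson r = -0.58 (exact permutation p = 0.161, adjusted p = 0.693) and Spearman rho = -0.79 (exact permutation p = 0.0480, adjusted p = 0.288). For this pair r was -0.13 without tamoxifen clone8_2 and clone4_2, the 2 libraries farthest from the median of Id2. With the correction for transcript length r was -0.75. Id1 and Id3 gave r = -0.42 and rho = -0.29 (exact permutation p = 0.347 and 0.556). Id1 and Id2 gave r = 0.30 and rho = 0.29 (exact permutation p = 0.503 and 0.556). Bmp4 gave r from -0.50 with Id2 to 0.15 with Id3 (exact permutation p = 0.265 and 0.766). For these pairs adjusted p-values were from 0.693 to 0.871 for r and 0.783 for rho. Leaving out the 2 libraries farthest from the median of the first gene moved r to 0.41 for Id1 and Id2, -0.09 for Id1 and Id3, -0.81 for Id1 and Bmp4, -0.39 for Id2 and Bmp4, and 0.95 for Id3 and Bmp4, so no pair but Id1 and Id2 and Id2 and Bmp4 kept a similar value. The clones hold 3 and 4 libraries, too few for a value within a clone.

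The genes closest to each of the 3 Id genes are listed as a description. Among 8052 other genes with a mean of at least 10 CPM, the ones closest to Id3 over the 7 libraries were Myo6 (r = 0.97), Mdc1 (r = 0.96) and Pcif1 (r = 0.95). Closest to Id2 were B3gnt5 (r = 0.98), Map3k4 (r = 0.98) and Tspan8 (r = 0.96), and closest to Id1 were Nepro (r = 0.99), Pik3r2 (r = 0.98) and Naif1 (r = 0.97). These values are the highest of many and are given as a description over 7 libraries. The 9 genes named are all different. This follows from the low or negative r among the 3 Id genes, since a gene this close to 2 of them would require those 2 to be alike. It is therefore no further result.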

How the data were processed

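RNA was measured in 7 libraries, each from 2 ng of RNA amplified with a low-input kit, per the labels. The values are raw counts per Ensembl gene, deposited by the authors in 1 table that was not normalised. The submitters' processing notes name bcl2fastq 2.19.1, STAR 2.5.3a and the build mm10; the counting program, annotation, strand setting and duplicate handling are not given in the sources used here. Without molecular identifiers, amplified reads are not independent molecules. Symbols, positions and transcript lengths (median over basic protein-coding transcripts) are from GENCODE M21 (GRCm38), which matched 52489 of the 52636 gene IDs. The gene listed as Hjv was matched through its older symbol.

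The tests used edgeR 4.0.16 (R 4.3.3) with TMM factors, edgeR's expression filter by group (16248 genes left), a quasi-likelihood fit with condition as the only term, and Benjamini-Hochberg adjustment at 0.05. Log2 CPM used a prior count of 2. Groups came from the treatment label. DESeq2 1.42.0, other scalings, filters, covariates, left-out libraries and an offset from a smooth curve on transcript length (span 0.2) were alternatives. The scripts were tested on simulated data. Protein sequences were not used here. The text names the 10 members, pathway list genes with an unadjusted p under 0.05 or among the 2 highest of their role per kb, and the 3 genes most like each Id gene. Members and lists were chosen with earlier results of these data known. Bmp3, Bmp5, Gdf6, Grem1 and Bmp15 were named after their values were seen.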

Additional observations from a re-analysis of the deposited data

Results flagged for a closer look

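In 26 sets of tamoxifen libraries, 1 for each member and named pathway gene, 2 held a library far from the other 3; chance gives about 1 in 20. Smad4 was at 32.8 CPM in tamoxifen clone8_1, against 15.4 to 17.3 CPM in the other 3. Smad6 was at 0.0971 CPM (4 counts) in tamoxifen clone8_2 and at 0 in the other 3, a distance of a few counts. With 3 values at 0, any value above 0 is flagged, so the rate of 1 in 20 does not apply to Smad6.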

How the results depend on the processing

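No member or pathway list gene was called in any of the 16 alternatives. All genes gave 0 calls except for 4 with DESeq2 and 2 with both clone8_1 libraries left out. No member passed in the interaction, except Id2 without a filter on low counts, where the share of all genes passing was not counted. Of 144 fold changes of the 9 members under alternatives, 128 kept their direction, and 6 of the 9 members kept it throughout. Same-numbered libraries did not deviate together (r = 0.0078, 0.021 and -0.068 for the 3 pairs), and with the replicate block 0 genes were called.

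Signs turned as follows, and the cause was not tested. With the replicate block: Bmpr2 0.12, Crebbp 0.0025, Gata2 0.30, Tcf12 0.044. With both clone8_1 libraries left out: Smad1 -0.27, Acvr2b -0.17, Skil -0.084, Ppm1a 0.0063, Tcf12 0.22. Within clone 4: Smad1 -0.61, Acvr2b -0.32, Crebbp 0.025, Dand5 -0.21, Skil -0.020, Ppm1a 0.081, Tcf3 -0.0095, Tcf12 0.31. Smad1 was at -0.00055 with RLE scaling, -0.00021 with DESeq2 and -0.0028 without a filter, Gata2 at 1.2e-06 with clone as a covariate, Tcf12 at 0.033 with the length correction, and the correlation of Id1 and Bmp4 at 0.037 with it. Leaving out 1 library gave ranges of -0.51 to 0.40 for Bmp4, -0.26 to 0.33 for Bmpr2, -0.34 to 1.00 for Smad1, -0.043 to 0.58 for Acvr2b, -0.028 to 0.81 for Smad4, -0.12 to 0.0050 for Crebbp, -0.050 to 0.25 for Fstl3, -0.077 to 0.11 for Skil, -0.43 to 0.040 for Msx2, -0.55 to 0.68 for Gata2 and -0.26 to 0.15 for Tcf12. Members under about 2 CPM (Id1, Smad1, Smad6) are limited by depth.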

Other observations

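Bmp15, the other oocyte-made ligand beside Gdf9, was too low to be tested. It was at 0.223, 0.841 and 0.950 CPM in the vehicle libraries, and at 0.0474, 0, 0 and 0.0486 CPM in the tamoxifen libraries. As for Gdf9, all tamoxifen libraries lay below all vehicle libraries. This held for 4.74% of all genes tested, a set that does not include Bmp15. The share among genes below the filter was not counted. Bmp15 had 9, 27 and 39 counts in the vehicle libraries and 2, 0, 0 and 2 counts in the tamoxifen libraries. Its tamoxifen counts are thus all under the limit of 3 counts. The pair of Gdf9 and Bmp15 was picked after the values were seen.

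Vehicle clone4_1 and tamoxifen clone8_1, the 2 libraries with little Bmp4, were not alike in the rest of the pathway. Vehicle clone4_1 had the most Smad1 of all libraries (2.06 CPM) and the most trophectoderm marker signal (summed 10759 CPM). Tamoxifen clone8_1 had the most Bmpr1a (45.0 CPM), Smad7 (51.3 CPM), Smad4 (32.8 CPM) and Acvr2b (23.9 CPM), and the least Acvr2a (7.69 CPM). No test was made of these differences between single libraries.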
